A study of Mus musculus with 6 samples.

Results

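The death receptor and caspase group described here holds 8 genes of the extrinsic death pathway and its caspases, out of 19937 genes measured. They are the ligand gene Tnfsf10, the receptor genes Fas, Tnfrsf10b and Tnfrsf1a, the initiator caspase genes Casp8 and Casp9, the inhibitor gene Cflar and the executioner caspase gene Casp6. The genes were chosen by name, and each was read from the probe set with the highest mean among those naming that gene alone. All 8 had such a probe set, and none was lost to a filter.

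The tumors came from 4T1 cells, a mouse mammary carcinoma line, of which 750000 were placed in the 4th mammary gland of each Balb/C mouse. From day 7, mice received TKI258 (dovitinib, an inhibitor of receptor tyrosine kinases such as those for FGF, VEGF and PDGF) at 40 mg/kg, or water, by mouth once a day for 14 days. One Affymetrix array was run for each of 3 individual tumors from TKI258 mice and 3 from water mice, and the animals' ages were not given in the sources used here. All tumors descend from 1 cell line in 1 mouse strain, and the host mice had vessels, stroma and immune cells of their own that enter the RNA of a whole tumor. In such RNA, fewer cells of a type and less RNA per cell cannot be told apart.

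Death receptors sit in the cell membrane and are engaged by ligands of the TNF family. Ligand-bound receptors gather the adaptor FADD and caspase-8, which cleaves and activates the executioner caspases that dismantle the cell. CFLAR (c-FLIP) resembles caspase-8 but lacks its protease activity, and it limits caspase-8 activation at the receptor. Caspase-9 starts the mitochondrial route, in which cytochrome c and APAF1 form the apoptosome. Caspases are made as inactive precursors, so transcript levels do not measure their activity.

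Sequences at the starts of Fas and Tnfsf10 are printed because Fas separated the treated tumors from the controls and Tnfsf10 varied most among the tumors. Each is a window of 250 bases on the plus strand, from RefSeq (GRCm38.p6). The windows are chr19:34290409-34290658 for Fas and chr3:27316827-27317076 for Tnfsf10. The Tnfsf10 window ends just before the gene. The Fas window runs past the RefSeq gene start at 34290647, so its last bases lie inside the gene. RefSeq windows were matched for 7 of the 8 genes, all except Tnfrsf10b. Capitals mark the only match found in the pair, a STAT-type GAS motif (TTCNNNGAA, which reads the same on both strands).
Fas: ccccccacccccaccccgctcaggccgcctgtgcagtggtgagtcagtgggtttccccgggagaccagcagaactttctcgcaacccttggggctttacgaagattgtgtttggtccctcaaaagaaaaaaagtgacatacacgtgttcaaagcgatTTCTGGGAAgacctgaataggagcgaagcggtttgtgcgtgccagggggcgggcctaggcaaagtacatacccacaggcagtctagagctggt
Tnfsf10: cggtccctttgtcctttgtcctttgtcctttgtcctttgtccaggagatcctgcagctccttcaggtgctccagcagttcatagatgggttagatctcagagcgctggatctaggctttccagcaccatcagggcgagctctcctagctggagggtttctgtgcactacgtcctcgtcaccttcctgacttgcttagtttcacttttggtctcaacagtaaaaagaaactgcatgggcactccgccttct
The Fas match begins at base -93 counted from the end of its window, not from the gene start. The GAS motif occurred in 7.02% of 32851 upstream windows of the same length. Among the 7 windows matched, that of Tnfrsf1a also held 1 match, so the motif was not particular to Fas. The interferon-stimulated response element core (GAAANNGAA) and the p53 half-site each occurred in 7.13% of windows and the NF-kB consensus in 3.9%, searched on both strands, and none of these was found in either sequence. Whether any factor bound these sequences in the tumors was not measured.

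Across all 34760 probe sets 0 passed limma's test at an adjusted p of 0.05 (Benjamini-Hochberg), while 2803 had an unadjusted p below 0.05, which is 8.06% of them. Correlations between arrays were 0.981 to 0.993 within TKI258 and 0.988 to 0.992 within water, and array medians were 6.38 to 6.44. The epithelial list, chosen for the carcinoma cells, averaged 8.998 to 9.46 in TKI258 tumors and 8.63 to 9.27 in water tumors. Its 6 markers had no common direction: 4 were higher and 2 lower in TKI258 tumors, with log2 differences from -0.32 to 0.88. The list mean therefore does not measure the share of carcinoma cells. TKI258 replicate 3 stood apart in lymphocyte markers: the B cell list (7 of 8 markers measured) averaged 5.24 to 9.16 in TKI258 tumors and 5.06 to 7.11 in water tumors, with the top value in that tumor. Water replicate 1 held the highest value of its group. No marker of the B cell list lay below the array median on all 6 arrays.

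The 8 genes had no common direction. Of the 8 genes, 4 were higher and 4 lower in TKI258 tumors, with a median log2 difference of 0.03, beside 0.02 over all genes. None passed limma's adjusted test, as for 0% of all probe sets. Fas had an unadjusted limma p below 0.05, as did 7.14% of all genes in either direction (3.79% higher and 3.35% lower). It was also the 1 gene of the 8 whose tumors did not overlap between groups, a separation seen in 15.1% of all genes (8.66% higher and 6.49% lower). One gene of 8 is near both backgrounds.

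**Figure D1:**
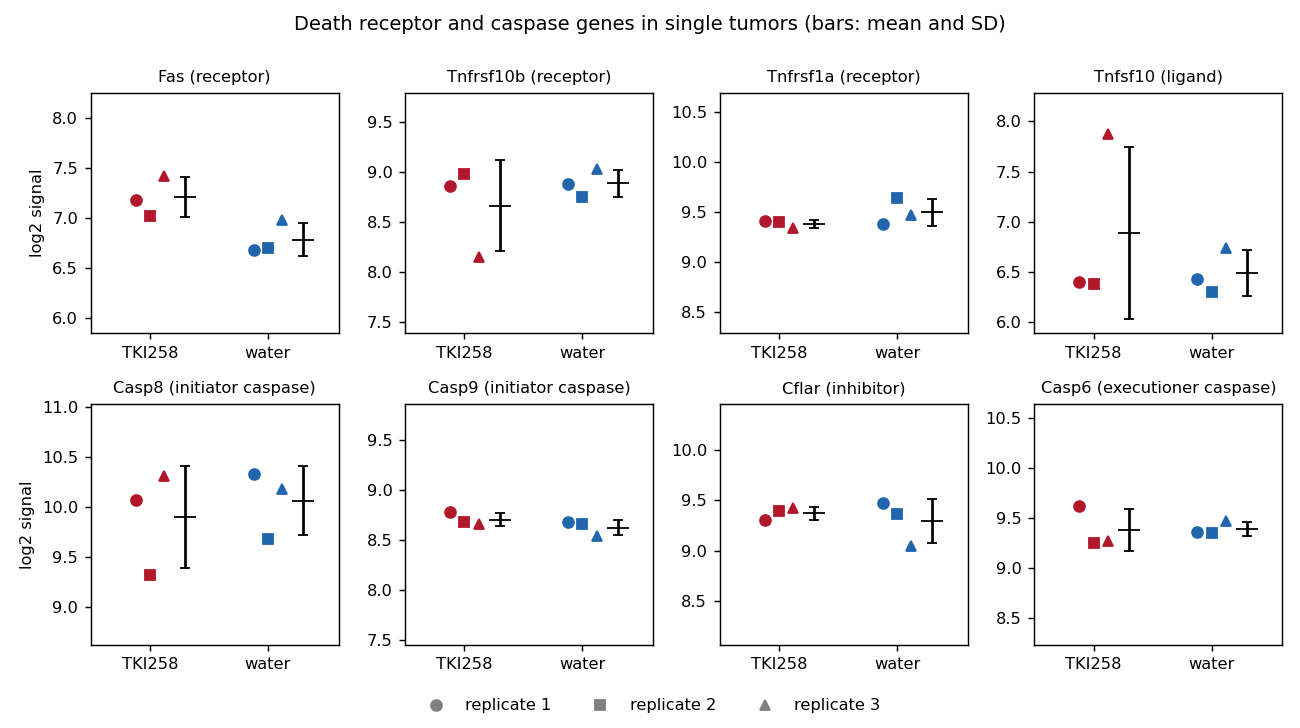
Log2 signal (vertical axis, each panel spanning the same number of units) of the 8 genes in the 3 TKI258 tumors (red) and the 3 water tumors (blue). Symbols give the replicate and the black bars the mean and SD. Fas at 7.02 to 7.42 in TKI258 tumors lies above 6.68 to 6.98 in water tumors, and Tnfsf10 is high at 7.88 in TKI258 replicate 3.

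Fas, the receptor for FAS ligand, was 1.34-fold higher in TKI258 tumors. Its log2 signal was 7.18, 7.02 and 7.42 in TKI258 replicates 1 to 3, against 6.68, 6.70 and 6.98 in water replicates 1 to 3. Every TKI258 tumor lay above every water tumor, but TKI258 replicate 2 was close to water replicate 3. The means were 7.21 ± 0.20 in TKI258 and 6.79 ± 0.17 in water (SD, n = 3 each). The log2 difference was 0.42 ± 0.14 (SE), with a 95% interval of 0.09 to 0.75. Limma gave an unadjusted p of 0.0193 and an adjusted p of 0.574, so the difference did not pass. The exact two-sided permutation test gave p = 0.1, the smallest that 3 against 3 tumors allow. In size the difference equalled or exceeded that of 96.0% of genes.

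The Fas difference kept its direction under all 15 alternative settings, at 0.26 to 0.52, with adjusted limma p of 0.485 to 0.880. Leaving out TKI258 replicate 3 gave an unadjusted limma p of 0.0512, leaving out water replicate 1 gave 0.0643 and leaving out water replicate 2 gave 0.0587. With TKI258 replicate 3 and water replicate 1 both removed, the difference was 0.26 and the unadjusted limma p 0.130.

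Several cell type lists separated the same tumors. The adipocyte list (7 of 7 measured) averaged 7.21 to 8.76 in TKI258 tumors and 5.97 to 7.09 in water tumors, and the fibroblast list (6 of 6) 10.48 to 10.70 in TKI258 tumors and 10.18 to 10.37 in water tumors. The neutrophil list (8 of 8) ran the other way, at 6.57 to 7.08 in TKI258 tumors and 7.38 to 7.91 in water tumors. All 8 of its markers were lower in TKI258 tumors, but Ltf, named after its value was seen, differed by only -0.10. One adipocyte marker and 1 neutrophil marker lay below the array median on all 6 arrays. The part of these cells in the Fas signal was not tested.

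Tnfsf10 encodes TRAIL, the ligand of the TRAIL receptor, and its signal depended on a single tumor. It was 6.40, 6.38 and 7.88 in TKI258 replicates 1 to 3, against 6.43, 6.29 and 6.74 in water replicates 1 to 3. TKI258 replicates 1 and 2 lay within the water range, and TKI258 replicate 3 lay above all other tumors. The means were 6.88 ± 0.86 in TKI258 and 6.49 ± 0.23 in water (SD, n = 3 each), a log2 difference of 0.40 ± 0.40 (SE; 95% interval -0.57 to 1.36; limma adjusted p = 0.790). Without TKI258 replicate 3 the difference was -0.10. The within-group SD of Tnfsf10, 0.63, was as large as or larger than that of 98.1% of genes, whose median was 0.13.

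Tnfrsf10b encodes DR5, the receptor through which TRAIL signals death in the mouse, and the same tumor stood out in the opposite direction. Its signal was 8.86, 8.99 and 8.15 in TKI258 replicates 1 to 3, against 8.88, 8.76 and 9.03 in water replicates 1 to 3. TKI258 replicate 3 lay below all other tumors, and the rest lay close together. TKI258 minus water was -0.22 ± 0.22 (log2 difference ± SE; 95% interval -0.75 to 0.31; limma adjusted p = 0.786), and it was 0.04 without TKI258 replicate 3. That tumor therefore had the highest ligand signal and the lowest receptor signal of the 6.

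In TKI258 replicate 3 the lymphocyte and interferon lists were also at their highest. So were the adipocyte (8.76), fibroblast (10.70) and epithelial (9.46) lists, and the neutrophil list was at its lowest (6.57). Ltf of the neutrophil list was highest in that tumor instead, at 8.19. The T and NK cell list (9 of 9 measured) averaged 5.36 to 7.72 in TKI258 tumors and 5.47 to 6.42 in water tumors. The interferon-stimulated list (7 of 10) averaged 6.28 to 7.41 in TKI258 tumors and 6.77 to 7.06 in water tumors. Within the interferon-stimulated list, Oas1a and Oas2, named after their values were seen, were highest in water replicate 1 instead. One T and NK cell marker and 1 interferon-stimulated marker lay below the array median on all 6 arrays. The part of any of these lists in the Tnfsf10 and Tnfrsf10b signals was not tested.

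**Figure D2:**
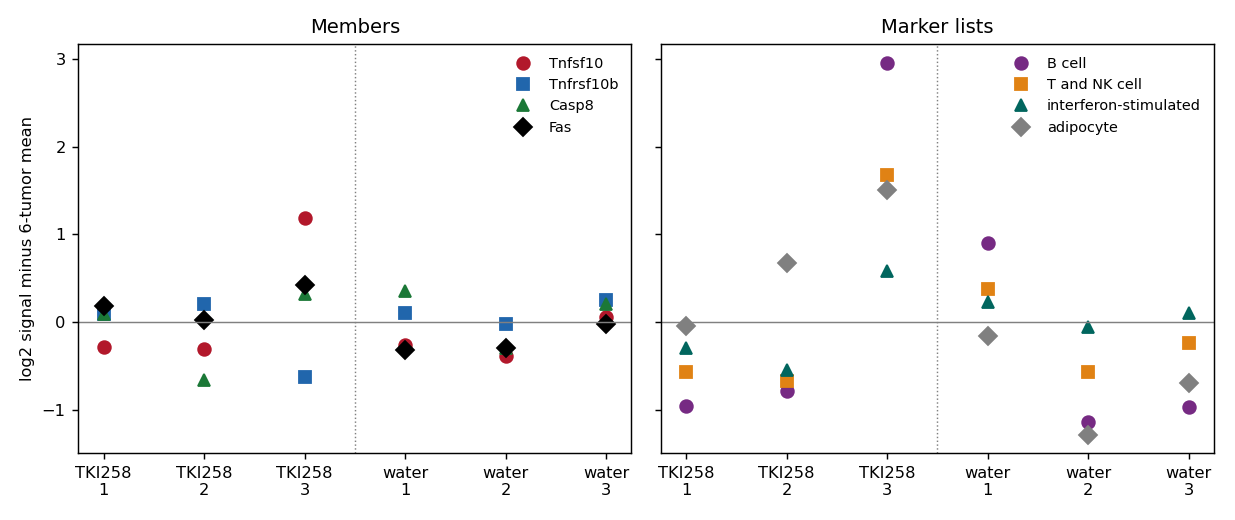
Log2 signal of 4 members (left) and mean log2 signal of 4 marker lists (right), each minus its mean over the 6 tumors, in TKI258 replicates 1 to 3 and then water replicates 1 to 3. In TKI258 replicate 3, Tnfsf10 (7.88) is above and Tnfrsf10b (8.15) below the other tumors, and the B cell list (9.16) is the highest of the 6.

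Tnfrsf1a encodes the broadly expressed TNF receptor TNFR1, which can drive inflammatory or death signals. Its signal was 9.41, 9.40 and 9.34 in TKI258 replicates 1 to 3, against 9.38, 9.64 and 9.47 in water replicates 1 to 3. The TKI258 tumors were tightly grouped, and water replicate 1 fell among them. TKI258 and water differed by -0.11 ± 0.10 (log2 difference ± SE; 95% interval -0.34 to 0.12; limma adjusted p = 0.753).

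Casp8, the initiator caspase of death receptors, varied widely within both groups. Its signal was 10.07, 9.33 and 10.31 in TKI258 replicates 1 to 3, against 10.33, 9.68 and 10.18 in water replicates 1 to 3. The lowest tumor of each group was replicate 2, but the labels do not say whether same-numbered tumors were paired. The groups overlapped over most of their range. The groups differed by -0.16 ± 0.28 (log2 difference ± SE; 95% interval -0.84 to 0.51; limma adjusted p = 0.876). Leaving out TKI258 replicate 2 gave 0.12 and leaving out TKI258 replicate 3 gave -0.37. The within-group SD, 0.44, was as large as or larger than that of 95.8% of genes.

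Cflar lies next to Casp8 on mouse chromosome 1 and encodes the inhibitor of its activation, and it varied much less. Its signal was 9.30, 9.39 and 9.42 in TKI258 replicates 1 to 3, against 9.47, 9.36 and 9.05 in water replicates 1 to 3. Water replicate 3 was the low value, and the TKI258 tumors lay inside the water range. The log2 difference was 0.08 ± 0.13 (SE; 95% interval -0.22 to 0.38; limma adjusted p = 0.869), and -0.05 without water replicate 3.

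Cflar was the 1 gene of the 8 with several probe sets, 3 in all. The one used had a 6-tumor mean of 9.333, barely above 9.321 for the next. The other two differed by 0.01 ± 0.08 and 0.02 ± 0.08 (log2 difference ± SE), with ranges over the 6 tumors of 0.10 and 0.11, against 0.43 for the one used. Water replicate 3 was thus clearly below the rest in 1 of 3 probe sets, at 9.05, against 9.31 and 8.75 in the others. In those others that tumor lay within 0.11 of the rest, although at 8.75 it was also the lowest.

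Casp9, the initiator caspase of the mitochondrial route, was among the steadiest genes. Its signal was 8.77, 8.67 and 8.65 in TKI258 replicates 1 to 3, against 8.67, 8.65 and 8.53 in water replicates 1 to 3. TKI258 replicate 1 was the highest and water replicate 3 the lowest, with the other tumors nearly level. The difference in log2 signal was 0.08 ± 0.09 (SE; 95% interval -0.13 to 0.28; limma adjusted p = 0.799). Its within-group SD of 0.07 was matched or undercut by 11.6% of genes.

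Casp6, an executioner caspase known for cleaving nuclear lamins, had almost equal means. Its signal was 9.62, 9.25 and 9.26 in TKI258 replicates 1 to 3, against 9.36, 9.34 and 9.46 in water replicates 1 to 3. TKI258 replicate 1 was the highest tumor and TKI258 replicates 2 and 3 the lowest, so the water tumors lay within the TKI258 range. The log2 difference was -0.01 ± 0.12 (SE; 95% interval -0.30 to 0.28; limma adjusted p = 0.985).

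**Figure D3:**
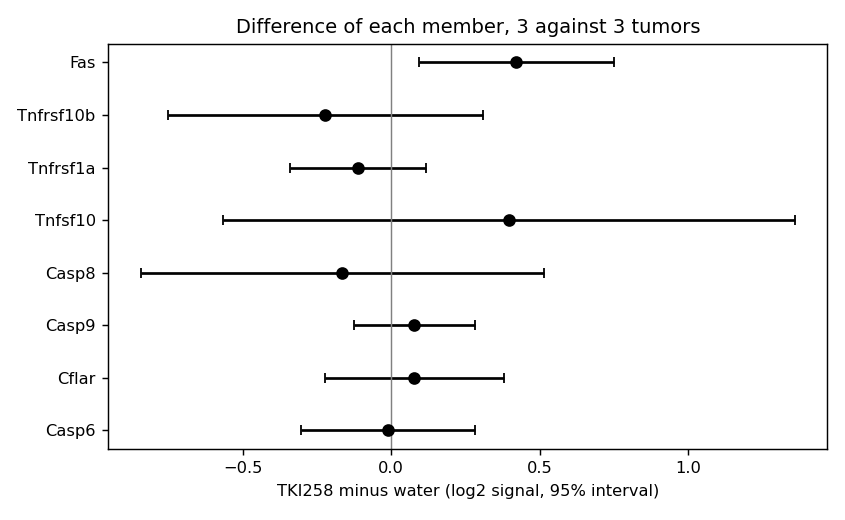
TKI258 minus water in log2 signal (horizontal axis) for each gene, with 95% intervals from limma, 3 tumors in each group. The interval of Fas runs from 0.09 to 0.75, the intervals of the other genes include 0, and those of Tnfsf10 and Casp8 are the widest.

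The intervals set what the comparison could show. For Casp9 differences above 0.28 or below -0.13 lie outside the 95% interval, and for Casp6 those above 0.28 or below -0.30. For Tnfsf10 the interval reached 1.36, so a large difference was not excluded, given the spread between tumors.

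**Figure D4:**
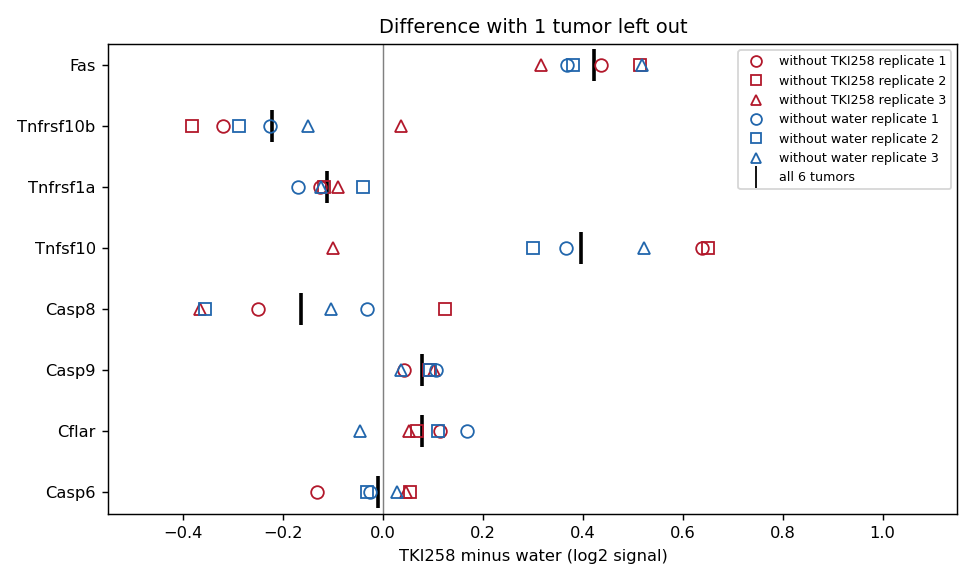
TKI258 minus water in log2 signal (horizontal axis) for each gene with all 6 tumors (black bar) and with 1 tumor left out (open symbols, red for a TKI258 tumor and blue for a water tumor). Fas stays between 0.32 and 0.52, while Tnfsf10 is at -0.10 and Tnfrsf10b at 0.04 without TKI258 replicate 3.

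Genes that followed the pattern of the most variable members over the 6 tumors were listed as a description. For Tnfsf10 they were Zbtb16 (Pearson r = 0.996), Mark2 (r = 0.994) and Mgat4f (r = 0.992), out of 19929 genes. Zbtb16, a transcription factor of innate-like lymphocytes, had a signal of 7.33 in TKI258 replicate 3 and 6.18 to 6.53 in the other tumors. Mark2 and Mgat4f varied by only 0.16 and 0.20 log2 units. For Casp8 they were Pcdhb2 (r = 0.993), Chrna2 (r = 0.993) and Olfr693 (r = 0.986), each at 5.04 or below in every tumor, under every array median. All 6 arrays are shared by each pair, and for Tnfsf10 the likeness rests largely on TKI258 replicate 3.

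The rest of the pathway was read in 7 lists with 70 genes measured. Ripk1 and Tnfsf12 were not analysed here. None of the 70 passed limma's adjusted test. An unadjusted limma p below 0.05 was found for 2 higher and 5 lower genes, 10% of the 70, against 7.14% of all genes. This count was 3 without water replicate 3, 4 without water replicate 2 and 5 to 9 without any other single tumor.

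The lower genes included Tnfrsf22 and Tnfrsf23, which encode membrane decoy receptors of the mouse that bind TRAIL and have no death domain. Tnfrsf22 had a log2 signal of 7.95, 7.96 and 7.80 in TKI258 replicates 1 to 3, against 8.43, 8.15 and 8.36 in water replicates 1 to 3. Tnfrsf23 had 7.91, 7.76 and 7.35 in TKI258 replicates 1 to 3, against 8.25, 8.04 and 8.48 in water replicates 1 to 3. All TKI258 tumors lay below all water tumors for both genes, which lie together on mouse chromosome 7. The log2 differences were -0.41 ± 0.11 for Tnfrsf22 and -0.58 ± 0.18 for Tnfrsf23 (SE; limma unadjusted p = 0.00690 and 0.0150, adjusted p = 0.567 and 0.574). Both kept their direction under 15 alternatives, at -0.49 to -0.30 and -0.70 to -0.42. Their neighbour Tnfrsf26, chosen after its value was seen, differed by -0.24 ± 0.14 and overlapped between groups. These genes are related in sequence, and signal shared between their probe sets was not tested.

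Of the 15 other ligand and receptor genes measured, 9 were higher and 6 lower in TKI258 tumors, and 7 lay below the array median on all 6 arrays. Tnfrsf25, a death receptor mainly of T cells, differed by 0.23 ± 0.11 (SE), with overlap. Of 15 adaptor and kinase genes 7 were higher and 8 lower, and 0 had an unadjusted p below 0.05. Fadd, the adaptor that joins receptor to caspase-8, differed by -0.18 ± 0.12, and Ripk3 and Mlkl, which carry out necroptosis, by -0.26 ± 0.19 and -0.22 ± 0.17.

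Of the 5 other caspase genes measured 2 were higher and 3 lower. Casp12, a caspase of the endoplasmic reticulum, differed by 0.26 ± 0.15 (SE), the inflammatory caspase gene Casp1 by -0.14 ± 0.22, and Casp14, an epidermal caspase, by -0.15 ± 0.08. Casp14 lay far below the array medians, at 4.12 to 4.23 in TKI258 tumors and 4.28 to 4.37 in water tumors. In the same arrays the keratinocyte list averaged 4.90 to 5.05 in TKI258 tumors, against 7.09 and 6.76 in water replicates 2 and 3, while water replicate 1 lay inside the TKI258 range. Its part was not tested.

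In the mitochondrial arm 4 of 8 genes were higher and 4 lower. Cycs, which encodes cytochrome c, was 10.28, 10.30 and 10.31 in TKI258 replicates 1 to 3, against 10.52, 10.52 and 10.67 in water replicates 1 to 3. The TKI258 tumors were nearly identical and lay below all water tumors. The log2 difference was -0.27 ± 0.08 (SE; limma unadjusted p = 0.0153, adjusted p = 0.574). Averaging all probe sets of Cycs gave -0.14 (limma unadjusted p = 0.148). Aven, an inhibitor of APAF1, differed by -0.20 ± 0.09 and the inhibitor of apoptosis gene Birc6 by 0.20 ± 0.11, both with an unadjusted limma p above 0.05.

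Of 10 genes for caspase substrates and cell dismantling, 4 were higher and 6 lower. Xkr8, whose protein exposes phosphatidylserine once caspases cleave it, was 6.91 to 7.18 in TKI258 tumors and 6.63 to 6.76 in water tumors (0.30 ± 0.10, log2 difference ± SE; limma adjusted p = 0.594). Gsdme, a gasdermin that opens membrane pores once cleaved, was 6.37 to 6.74 in TKI258 tumors and 6.23 to 6.34 in water tumors (0.28 ± 0.11; limma adjusted p = 0.615). Both were without overlap between groups, although the closest Gsdme tumors nearly met. With both probe sets of Gsdme averaged, its difference was 0.11 (limma unadjusted p = 0.259), and its unadjusted p was below 0.05 in 5 of 15 alternatives, against 11 of 15 for Xkr8. Dffb, the nuclease that cuts DNA in apoptosis, differed by -0.13 ± 0.10.

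**Figure D5:**
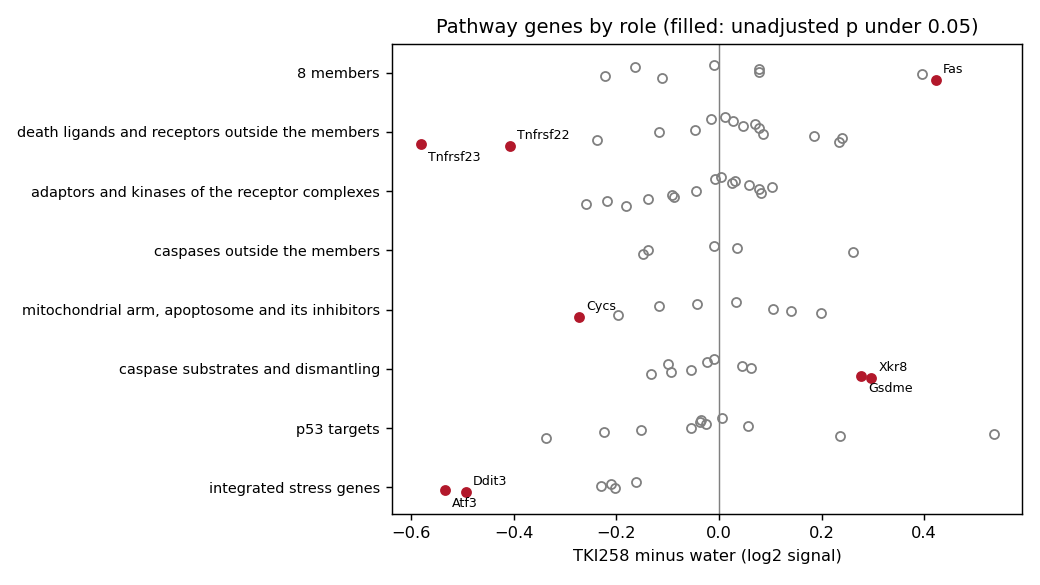
TKI258 minus water in log2 signal (horizontal axis) for the 8 members and for the genes of 7 pathway lists (rows); filled points have an unadjusted limma p under 0.05. Fas lies at 0.42, Tnfrsf22 and Tnfrsf23 at -0.41 and -0.58, and Ddit3 and Atf3 at -0.49 and -0.53, and none of the genes plotted passed the adjusted test.

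The regulators known to induce death receptor genes were read beside them. Fas and the human counterpart of Tnfrsf10b are targets of p53, and of 11 other p53 targets 4 were higher and 7 lower, with 0 at an unadjusted p below 0.05. Trp53inp1 was 10.02 in TKI258 replicate 3 and 8.31 to 8.79 in the other tumors, Pmaip1 (NOXA) differed by -0.34 ± 0.17 and Phlda3 by 0.24 ± 0.15 (log2 difference ± SE). Human TNFRSF10B is also induced by CHOP, the product of Ddit3, in the integrated stress response.

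All 6 integrated stress genes were lower in TKI258 tumors, with a median log2 difference of -0.22, beside 0.02 over all genes. Of the 6, 2 separated the groups and had an unadjusted limma p below 0.05. Among all genes, 6.49% separated the groups with lower TKI258 signal, and 3.35% were lower at an unadjusted limma p below 0.05. These 6 genes were listed with earlier results of these data known. The list means overlapped, at 8.25 to 8.75 in TKI258 tumors and 8.68 to 9.03 in water tumors. Ddit3 was 7.46, 7.17 and 7.07 in TKI258 replicates 1 to 3, against 7.66, 7.80 and 7.71 in water replicates 1 to 3. The groups did not overlap, and a relation to the Tnfrsf10b signal was not tested. The log2 difference was -0.49 ± 0.12 (SE; limma unadjusted p = 0.00504, adjusted p = 0.548). Atf3, a stress-induced transcription factor, differed by -0.53 ± 0.21 (limma adjusted p = 0.615), and Atf4, the factor upstream of both, by -0.20 ± 0.17. The Atf3 difference was -0.31 with water replicate 3 left out and -0.75 with water replicate 1 left out, and its unadjusted limma p was below 0.05 in 8 of 15 alternatives.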

How the data were processed

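The authors deposited log2 signals, 1 for each probe set and array. RMA, affy and limma are named in the submitters' processing notes, and their versions and a genome build were not given in the sources used here. In all, the table held 34760 probe sets and 6 arrays, and all columns were used. Of the probe sets 21640 named 1 gene, 1321 several and 11799 none in the platform annotation. Symbols were checked by Entrez number against RefSeq (GRCm38.p6): 21553 probe sets matched and 0 symbols changed. Where a gene had several probe sets, the one brightest on average was used, which gave 19937 genes.

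TKI258 was compared with water over all probe sets in limma 3.58.1 (R 4.3.3), with group as the only term, eBayes, two-sided tests and Benjamini-Hochberg adjustment at 0.05, without a filter. The script was tested on simulated data. Differences are TKI258 minus water. Levels of different probe sets are not compared, and 3 arrays in each group limit the precision. The members, the 7 pathway lists and the 10 marker lists were chosen with earlier results of these data known. The rule named all 8 members, up to 3 genes of smallest p in each pathway list, and the 3 genes most like each of the 2 members of widest range; any other gene is marked as chosen after its value was seen. Replicate numbers were not treated as pairs, since the labels do not say whether tumors were paired. The deviations of same-numbered tumors from their group means correlated at -0.23, 0.19 and 0.01, which cannot settle it. The 15 alternatives were a low-signal filter (mean below 6.40), quantile normalization, median centring, a replicate block, a trend and robust prior, array weights, probe sets with 1 gene only, averaging a gene's probe sets, each array left out, and water replicate 1 with TKI258 replicate 3 left out.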

Additional observations from a re-analysis of the deposited data

How the results depend on the processing

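Over 15 alternatives for each of the 8 genes, 108 of 120 log2 differences kept their direction, 12 reversed and 0 passed limma's adjusted threshold; Fas, Tnfrsf1a and Casp9 never reversed. With 1 tumor left out, differences ranged from -0.38 to 0.036 for Tnfrsf10b, -0.10 to 0.65 for Tnfsf10, -0.37 to 0.12 for Casp8, -0.045 to 0.17 for Cflar and -0.13 to 0.055 for Casp6. Casp6 was also at 0.037 after quantile normalization and 0.049 with array weights. Without both water replicate 1 and TKI258 replicate 3, Tnfrsf10b was at 0.03, Tnfsf10 at -0.13 and Casp6 at 0.03, 0 of the 8 genes had an unadjusted p below 0.05, and 1 probe set passed in the whole table. With 1 tumor left out, 0 to 3 probe sets passed (3 without water replicate 1), and 0 to 1 of the 8 genes had an unadjusted p below 0.05: 0 without TKI258 replicate 3, water replicate 1 or water replicate 2. The median difference of the 8 genes was -0.04 to 0.08 under those settings, against 0.03 with all tumors. The count of pathway genes with an unadjusted p below 0.05, 7 with all tumors, was 3 to 9 with 1 tumor left out; the settings for that count and for single pathway genes were chosen after seeing the data. The causes were not tested. The sample titles number the tumors as biological replicates and do not say whether they were paired. With the replicate block, Fas had an unadjusted limma p of 0.00786 and an adjusted p of 0.583, 1 of the 8 genes and 5 pathway genes had an unadjusted p below 0.05, and the block changed no call at the adjusted threshold; the unadjusted limma p was 0.0583 for Atf3, 0.0595 for Xkr8 and 0.0827 for Gsdme. With 3 arrays in each group, the spread between tumors limits what can be detected for Tnfsf10, Casp8 and Tnfrsf10b most.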
